A study of Rattus norvegicus with 37 samples.

Results

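The genes described here are 5 genes of antioxidant defence and glutathione synthesis in rat liver. They were taken from the table of 24613 genes by their Ensembl identifiers, namely Nfe2l2 (ENSRNOG00000001548), Gclc (ENSRNOG00000006302), Gclm (ENSRNOG00000013409), Hmox1 (ENSRNOG00000014117) and Cat (ENSRNOG00000008364). The rule for taking them uses identifiers and no threshold on their values, and each of the 5 genes passed the filter on low counts in every comparison. RNA was sequenced from the livers of 37 female rats of the outbred Sprague Dawley strain (1 library each), estimated from body weight to be 8 to 9 weeks old at injury or at the start. The SCI + In-Cage Activity set asked how room to move affects the liver after spinal cord injury (SCI). It held 5 uninjured rats in standard cages (No SCI + Standard), 5 rats with a contusion of the cord at level T2 (25 g-cm) in tiny cages (CONT SCI + Tiny) and 5 with the same contusion in large cages (CONT SCI + Large). The SCI + Exercise set asked about exercise and severity of injury. Its 22 rats were all labelled as living in tiny cages: 4 uninjured (No SCI), 4 with the contusion (CONT SCI), 4 with a complete transection at T2 (TX SCI), 5 with the contusion that swam (CONT SCI + SWIM) and 5 with the contusion that walked in shallow water (CONT SCI + SWW). According to the labels, livers were taken 11.5 weeks after injury or at the matching age, but 8.5 weeks after injury in TX SCI, and exercise ran from day 10 on 5 days a week for 8 weeks. The study's own text places the exercised rats' start and collection later than the labels do, and gives a longer period of exercise. By that text, exercise and time of collection cannot be told apart. The labels name pentobarbital as the anaesthetic, with gentamicin, and buprenorphine for the injured rats, while the study's text names a cocktail of ketamine, xylazine and acepromazine as the anaesthetic. Rats shared a cage in pairs, and the labels do not name cage mates.

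NRF2, the transcription factor encoded by Nfe2l2, is held at a low level by KEAP1, which marks it for degradation. When oxidants or electrophiles modify KEAP1, NRF2 accumulates in the nucleus and acts at antioxidant response elements, short DNA motifs near genes of glutathione synthesis, heme breakdown and detoxification. The liver is a main site of glutathione synthesis and exports glutathione to other organs. NRF2 is controlled to a large extent as a protein, so the messenger RNA level of Nfe2l2 is not a measure of its activity.

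Promoter sequences from RefSeq (GRCr8 build) are shown for the genes whose window holds the core of an antioxidant response element, TGACNNNGC, or GCNNNGTCA when read on the other strand. The windows run from 250 bases before to 50 bases after each gene's start, 4 of the 5 genes were in the table, and of all 33469 windows 12.1% held the core on either strand. The core was present in the windows of Gclm and Nfe2l2 and absent from those of Gclc and Cat, and Hmox1 was not in the table. In the 250 bases before the start of Gclm (chr2:213031885-213032134, plus strand) it lies 172 bases before the start and reads on the opposite strand. In Nfe2l2 it lies 39 bases after the start used by the table, which is 2166 bases inside the annotated gene, and 29 bases around it are shown (chr3:81028950-81028978, minus strand). The start used for Gclc lies 225 bases inside its annotated gene. Capitals mark the core in each sequence, 5′ to 3′. A match of these letters describes the sequence and does not show that a factor binds there.
Gclm: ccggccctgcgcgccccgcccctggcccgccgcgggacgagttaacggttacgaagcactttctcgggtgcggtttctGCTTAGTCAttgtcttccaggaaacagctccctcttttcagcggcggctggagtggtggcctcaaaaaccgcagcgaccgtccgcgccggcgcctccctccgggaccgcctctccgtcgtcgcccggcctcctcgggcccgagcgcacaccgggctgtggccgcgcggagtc
Nfe2l2: ctgctccgactagccatTGACGCCGCctc

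The authors counted between 20066978 and 25130252 reads per library on genes in the In-Cage set and between 26190364 and 36761953 in the Exercise set. The lowest count of any of the 5 genes in a library was 489 reads, for Hmox1, so the spread between rats rather than the depth limits the precision. Levels are CPM, read counts scaled to the size of the library, after TMM normalization over the 37 libraries, given in the order of the replicate numbers. Differences are log2 values from edgeR's quasi-likelihood test with a standard error (SE), and a gene was called where the Benjamini-Hochberg adjusted p over all genes tested was under 0.05. Gene lengths were not used, so levels are compared between samples of 1 gene and not between genes. In these pieces of whole liver, fewer cells of a type and less RNA per cell cannot be told apart. Lists of cell type markers and of other antioxidant genes were not analysed here, because no table at hand pairs symbols with these identifiers.

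**Figure D1:**
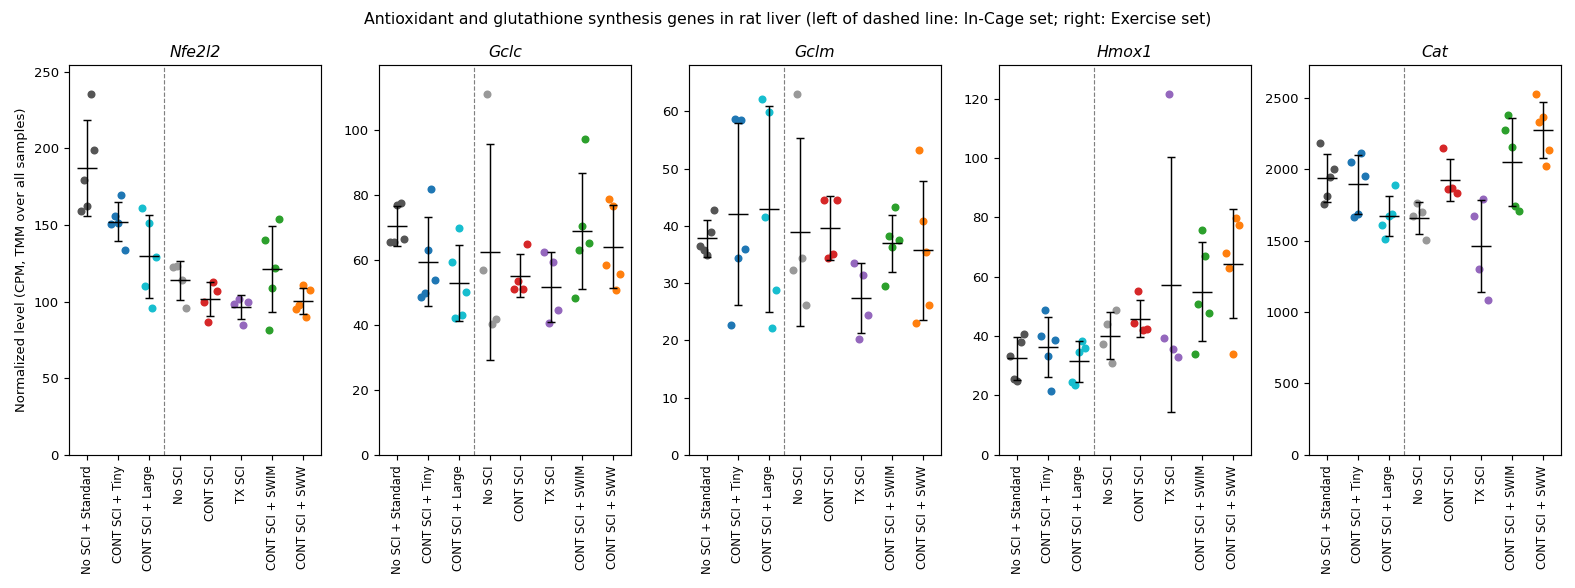
Level of each gene in CPM (y axis, from 0) in every library, by group on the x axis. Points are rats, horizontal bars with whiskers are the mean ± SD, and the dashed line separates the In-Cage set (left) from the Exercise set (right). Nfe2l2 has its highest mean in the 5 No SCI + Standard rats (159 to 235 CPM), and 1 TX SCI rat stands far above the others for Hmox1 (121 CPM).

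In the In-Cage set, Nfe2l2, Gclc and Cat had lower mean levels in both groups with a contusion than in uninjured rats, Cat only slightly so in tiny cages. The mean of Gclm was higher in both, and the difference of Hmox1 had opposite signs in the injured groups. None of the 5 genes passed the adjusted threshold in any of the 3 comparisons of this set. Against No SCI + Standard, edgeR called 1479 of 11859 genes (12.5%) in CONT SCI + Tiny. It called 4 of 11852 (0.0337%) in CONT SCI + Large. Injury and cage size differ together in these comparisons and cannot be told apart, and both use the same 5 uninjured rats. At an unadjusted p under 0.05 stood 1 of the 5 genes in CONT SCI + Tiny, beside 34.3% of all genes, and 2 of the 5 in CONT SCI + Large, beside 29.4%. DESeq2 called 1 of the 5 in CONT SCI + Large, beside 12.8% of all genes. In CONT SCI + Tiny it called 2531 genes and 0 of the 5. DESeq2 sets its own number of genes tested. Where only its count of genes is printed, here and below, the share of all genes is not given. The calls among the 5 cannot be set against a share there.

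Nfe2l2 measured 159, 179, 162, 235 and 199 CPM in the No SCI + Standard rats. It measured 150.5, 156, 151, 169 and 133 CPM in the CONT SCI + Tiny rats and 161, 109.97, 151, 95.98 and 129 CPM in the CONT SCI + Large rats. The means were 187 ± 31.3, 152 ± 12.9 and 129 ± 27.1 CPM (SD, n = 5 each), and the ranges of the injured groups overlapped that of the uninjured group, in each case through 1 rat, the highest of its group. The log2 difference from No SCI + Standard was -0.32 (SE 0.13, unadjusted p = 0.0261, adjusted p = 0.098, edgeR) in CONT SCI + Tiny. In CONT SCI + Large it was -0.55 (SE 0.17, unadjusted p = 0.00588, adjusted p = 0.0854, edgeR). The second value lay past the threshold when all 3 groups of the set shared 1 edgeR fit (adjusted p = 0.0399, a fit that called 7.72% of all genes) and with DESeq2 (adjusted p = 0.0333). It also did so in 1 of the 10 edgeR fits that each left out 1 rat, the one without CONT SCI + Large replicate 1 (-0.65, adjusted p = 0.0313), which called 16.9% of all genes. In CONT SCI + Tiny the single such fit was the one without No SCI + Standard replicate 1 (-0.38, adjusted p = 0.0494), which called 25% of all genes.

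Gclc encodes the catalytic subunit of glutamate-cysteine ligase, the enzyme that sets the pace of glutathione synthesis. Its levels were 65.6, 65.5, 76.8, 77.5 and 66.3 CPM in No SCI + Standard, a narrow range. They were 48.7, 49.9, 62.9, 81.8 and 53.7 CPM in CONT SCI + Tiny and 59.3, 42.05, 69.9, 42.99 and 50.04 CPM in CONT SCI + Large. In CONT SCI + Tiny 4 of the 5 rats lay below every uninjured rat, and replicate 4 (81.8 CPM) lay above all of them. In CONT SCI + Large 4 of the 5 rats lay below every uninjured rat. Means were 70.4 ± 6.22, 59.4 ± 13.7 and 52.9 ± 11.8 CPM (SD, n = 5 each). The edgeR difference was -0.27 (SE 0.14, adjusted p = 0.199) in CONT SCI + Tiny and -0.43 (SE 0.15, unadjusted p = 0.012, adjusted p = 0.0995) in CONT SCI + Large. Without CONT SCI + Tiny replicate 4 the first became -0.41 with an adjusted p of 0.0394, in a fit that called 15% of all genes, so that call depended on 1 rat.

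Gclm encodes the modifier subunit, which makes the ligase more efficient, and its window holds the core printed above. It measured 36.5, 35.8, 35, 38.95 and 42.8 CPM in No SCI + Standard, 22.7, 58.6, 34.5, 58.6 and 36 CPM in CONT SCI + Tiny and 62.2, 41.6, 59.9, 22.2 and 28.8 CPM in CONT SCI + Large. The uninjured rats lay close together and the injured rats on both sides of them. The mean was 37.8 ± 3.17 CPM in No SCI + Standard, 42.1 ± 15.9 CPM in CONT SCI + Tiny, then 42.9 ± 17.95 CPM in CONT SCI + Large (SD, n = 5 each). The coefficient of variation was thus 8.39% in the uninjured rats, 37.9% after contusion in tiny cages and 41.8% after contusion in large cages, and the difference in spread was not tested. The log2 difference was 0.13 (SE 0.22) in CONT SCI + Tiny, and for CONT SCI + Large it was 0.16 (SE 0.24), with adjusted p = 0.7 and 0.672 in edgeR.

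Hmox1 encodes heme oxygenase 1, an inducible enzyme that breaks down heme and that is also made by macrophages of the liver. It ranged from 24.9 to 40.7 CPM in No SCI + Standard, from 21.4 to 48.8 CPM in CONT SCI + Tiny and from 23.6 to 38.4 CPM in CONT SCI + Large. The groups covered each other, and the edgeR differences from No SCI + Standard were 0.14 (SE 0.21, adjusted p = 0.666) and -0.069 (SE 0.19, adjusted p = 0.828). Cat encodes catalase, the peroxisomal enzyme that breaks down hydrogen peroxide. Its levels were 2187, 1757, 1816, 1948 and 2000.1 CPM in No SCI + Standard. They were 2054, 1669, 1686, 2113 and 1950.3 CPM in CONT SCI + Tiny and 1611, 1512, 1676, 1687 and 1893 CPM in CONT SCI + Large, where 4 of the 5 rats lay below every uninjured rat. The means were 1942 ± 168 CPM in No SCI + Standard, 1895 ± 206 CPM in CONT SCI + Tiny and 1676 ± 140.2 CPM in CONT SCI + Large (SD, n = 5 each). The difference of CONT SCI + Large from the uninjured rats was -0.23 (SE 0.12, unadjusted p = 0.0665, adjusted p = 0.197, edgeR), and that of CONT SCI + Tiny was -0.060 (SE 0.12, adjusted p = 0.751).

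Between the cage sizes after contusion, the comparison in which injury was the same, edgeR called 0 of 11920 genes (0%), 346 had an unadjusted p under 0.05 (2.9%) and DESeq2 called 3. None of the 5 genes was among those at an unadjusted p under 0.05, and DESeq2 called none of them. For CONT SCI + Large against CONT SCI + Tiny the log2 difference was -0.22 (SE 0.14) for Nfe2l2 and -0.16 (SE 0.18) for Gclc. It was 0.039 (SE 0.33) for Gclm, -0.21 (SE 0.21) for Hmox1 and -0.17 (SE 0.11) for Cat. For Gclc, Gclm and Hmox1 the SE was larger than the difference itself, and none of these values shows that the cages gave alike levels.

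**Figure D2:**
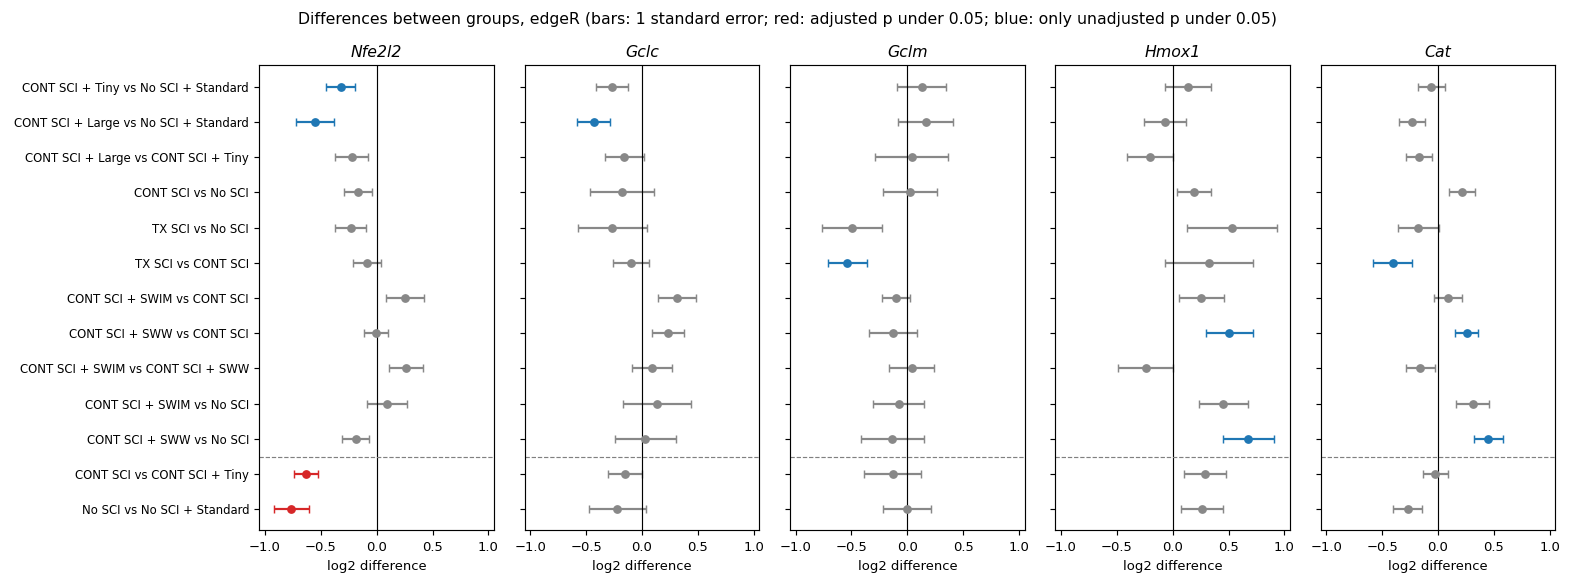
Log2 difference between the named groups (x axis) for each gene and each of 13 comparisons (y axis), from edgeR; whiskers are 1 SE. Red points had an adjusted p under 0.05, blue points only an unadjusted p under 0.05, and the comparisons under the dashed line set the Exercise set against the In-Cage set. The red points are the 2 Nfe2l2 differences between the sets.

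In the Exercise set the contusion was compared with no injury in cages of the same size. edgeR called 1 of 12482 genes (0.00801%), and 561 genes, 4.49%, had an unadjusted p under 0.05. None of the 5 genes stood in either count, and DESeq2, which called 63 genes, called none of them. Cat came nearest, with 1674, 1763, 1698 and 1504 CPM in No SCI and 2148, 1862, 1867 and 1832 CPM in CONT SCI. Every CONT SCI rat lay above every uninjured rat, and the means were 1659.99 ± 110.3 and 1927 ± 148 CPM (SD, n = 4 each). The share of all genes that separated these groups so was not counted. The log2 difference was 0.22 (SE 0.12, unadjusted p = 0.0894, adjusted p = 0.998, edgeR).

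For the other genes the same comparison gave smaller or less certain differences. Nfe2l2 measured 122, 123, 114 and 96 CPM in No SCI and 99.4, 86.8, 113 and 107 CPM in CONT SCI (-0.17, SE 0.13). Gclc measured 56.8, 111, 40.3 and 41.7 CPM in No SCI and 51.1, 53.4, 51.1 and 64.8 CPM in CONT SCI (-0.18, SE 0.29). Gclm measured 32.3, 62.99, 34.4 and 26.2 CPM in No SCI and 44.5, 34.4, 35.1 and 44.5 CPM in CONT SCI (0.023, SE 0.24). No SCI replicate 2 held the highest Gclc level of all 37 rats and the highest Gclm level, so both genes of the ligase stood out in the same rat. Without this rat the log2 difference became 0.26 for Gclc (adjusted p = 0.398) and 0.36 for Gclm (adjusted p = 0.279), neither of which edgeR called. Hmox1 measured 37.2, 44.1, 30.9 and 48.6 CPM in No SCI and 44.4, 55.05, 41.9 and 42.3 CPM in CONT SCI (0.19, SE 0.15).

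Complete transection was compared with contusion and with no injury. Gclm and Cat had lower levels in every TX SCI rat than in any CONT SCI rat, and neither difference passed the adjusted threshold. How many of all genes separated these groups in this way was not counted, so the separation is not shown to be particular to these 2. The TX SCI rats were sampled 8.5 weeks and the CONT SCI rats 11.5 weeks after injury, so severity and time cannot be told apart. Against CONT SCI, edgeR called 4 of 12468 genes (0.0321%) and none of the 5, and 2 of the 5 had an unadjusted p under 0.05, beside 13.4% of all genes. Against No SCI it called 8 of 12530 genes (0.0638%) and none of the 5, none of which had an unadjusted p under 0.05, beside 12.1% of all genes. DESeq2 called 363 genes against CONT SCI and 291 against No SCI, none of the 5 among them.

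Gclm measured 33.5, 20.3, 31.5 and 24.5 CPM in TX SCI, all below the lowest CONT SCI rat at 34.4 CPM, with means of 27.4 ± 6.15 and 39.6 ± 5.62 CPM (SD, n = 4 each). The log2 difference from CONT SCI was -0.54 (SE 0.17, unadjusted p = 0.0108, adjusted p = 0.222, edgeR) and ranged from -0.62 to -0.39 when each rat was left out. From No SCI it was -0.50 (SE 0.27, adjusted p = 0.502), and -0.17 without No SCI replicate 2. Gclc, the partner subunit, measured 62.3, 40.5, 59.2 and 44.6 CPM in TX SCI, within the range of the uninjured rats, and differed from CONT SCI by -0.10 (SE 0.16) and from No SCI by -0.26 (SE 0.31).

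Cat measured 1669.5, 1305, 1789 and 1085 CPM in TX SCI, all below the lowest CONT SCI rat at 1832 CPM, with a mean of 1462 ± 325 CPM (SD, n = 4). The log2 difference was -0.40 from CONT SCI (SE 0.17, unadjusted p = 0.0415, adjusted p = 0.349, edgeR) and -0.17 from No SCI (SE 0.19, adjusted p = 0.786). That from CONT SCI ranged from -0.51 to -0.28 when each rat was left out. Replicate 4, the lowest for Cat, was the TX SCI library with the fewest genes detected (14682). Hmox1 measured 39.5, 121, 35.5 and 33 CPM in TX SCI, with replicate 2 far above the others. With that rat the log2 difference from No SCI was 0.53 (SE 0.40, adjusted p = 0.656), and without it -0.16 (adjusted p = 0.87). Against CONT SCI the value changed from 0.33 (SE 0.39) to -0.33 (adjusted p = 0.47) without the same rat, so its sign rested on 1 animal. Nfe2l2 measured 98.6, 102, 84.6 and 100.01 CPM in TX SCI, close together, and differed from CONT SCI by -0.084 (SE 0.13) and from No SCI by -0.23 (SE 0.14).

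Exercise after contusion was compared with contusion alone. Cat and Hmox1 had their highest group means in CONT SCI + SWW, and neither gene passed the adjusted threshold in edgeR against CONT SCI or No SCI. Against CONT SCI, edgeR called 96 of 12642 genes (0.759%) in CONT SCI + SWW and 1 of 12502 (0.008%) in CONT SCI + SWIM, none of them among the 5. At an unadjusted p under 0.05 stood 2 of the 5 in CONT SCI + SWW, beside 20.8% of all genes, and 0 of the 5 in CONT SCI + SWIM, beside 13.1%. DESeq2 called 910 genes in CONT SCI + SWW and 254 in CONT SCI + SWIM, with 0 of the 5 in both comparisons. These comparisons share the 4 CONT SCI rats.

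Cat measured 2526, 2329, 2363, 2023 and 2132 CPM in CONT SCI + SWW and 2272, 2382, 2154, 1745 and 1710.4 CPM in CONT SCI + SWIM. The means were 2274 ± 199 and 2053 ± 308 CPM (SD, n = 5 each), beside 1927 ± 148 CPM in CONT SCI (n = 4). Of the CONT SCI + SWW rats 3 lay above the highest CONT SCI rat and the other two within the CONT SCI range, whereas of the CONT SCI + SWIM rats 3 lay above that range and 2 below it. The difference from CONT SCI was 0.26 (SE 0.10, unadjusted p = 0.0305, adjusted p = 0.194) for CONT SCI + SWW and 0.089 (SE 0.13, adjusted p = 0.821) for CONT SCI + SWIM, both from edgeR.

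Hmox1 measured 67.9, 63.1, 33.98, 79.8 and 77.4 CPM in CONT SCI + SWW and 33.8, 50.7, 75.9, 67.01 and 47.6 CPM in CONT SCI + SWIM. In CONT SCI + SWW 4 of the 5 rats lay above the highest CONT SCI rat (55.0 CPM), and replicate 3 lay below the lowest. The mean was 64.4 ± 18.3 CPM in CONT SCI + SWW and 55.01 ± 16.6 CPM in CONT SCI + SWIM (SD, n = 5 each), against 45.9 ± 6.20 CPM in CONT SCI (n = 4). The difference from CONT SCI was 0.51 (SE 0.21, unadjusted p = 0.0335, adjusted p = 0.2, edgeR) for CONT SCI + SWW. It was 0.26 (SE 0.20, adjusted p = 0.639, edgeR) for CONT SCI + SWIM. Without CONT SCI + SWIM replicate 3 (75.9 CPM), the library with the fewest genes detected (13648), it was 0.12 (adjusted p = 0.807, edgeR).

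None of Nfe2l2, Gclc and Gclm had an unadjusted p under 0.05 between an exercised group and CONT SCI. Nfe2l2 measured 139.9, 81.3, 109, 122 and 154 CPM in CONT SCI + SWIM, the widest range among the Exercise groups, and 95.1, 98.04, 111, 90.02 and 107 CPM in CONT SCI + SWW. Its difference from CONT SCI was 0.25 (SE 0.17) with swimming and -0.0028 (SE 0.11) with shallow water walking. Gclc measured 48.2, 63.1, 70.3, 97.2 and 65.2 CPM in CONT SCI + SWIM and 58.3, 78.7, 76.6, 50.8 and 55.7 CPM in CONT SCI + SWW. Its mean was higher than in CONT SCI in both groups, by 0.31 (SE 0.17, adjusted p = 0.463) and 0.23 (SE 0.14, adjusted p = 0.381) on the log2 scale in edgeR. Gclm, by contrast, measured 29.5, 38.3, 36.4, 43.4 and 37.5 CPM in CONT SCI + SWIM and 23.1, 53.3, 40.9, 35.4 and 26.1 CPM in CONT SCI + SWW, -0.10 (SE 0.13) and -0.13 (SE 0.21) from CONT SCI.

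The kinds of exercise were also compared with each other. edgeR called 0 of 12525 genes (0%) between CONT SCI + SWIM and CONT SCI + SWW, 680 had an unadjusted p under 0.05 (5.43%), and DESeq2 called 14. None of the 5 genes had an unadjusted p under 0.05, and DESeq2 called none of them. The log2 difference of swimming from shallow water walking was 0.26 (SE 0.15) for Nfe2l2, 0.092 (SE 0.18) for Gclc and 0.038 (SE 0.20) for Gclm. It was -0.24 (SE 0.24) for Hmox1 and -0.16 (SE 0.13) for Cat, both genes with the lower mean after swimming.

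Against uninjured rats, where injury and exercise differ together, edgeR called 50 of 12677 genes (0.394%) in CONT SCI + SWW and 1 of 12564 (0.00796%) in CONT SCI + SWIM. None of the 5 genes was called, while 2 had an unadjusted p under 0.05 in CONT SCI + SWW, beside 21% of all genes, and 0 in CONT SCI + SWIM, beside 10.5%. For Cat every CONT SCI + SWW rat (2023 to 2526 CPM) lay above every No SCI rat (1504 to 1763 CPM), and the share of all genes that separated so was not counted. The Cat difference was 0.45 (SE 0.13, unadjusted p = 0.00444, adjusted p = 0.102, edgeR). DESeq2 called it (0.45, adjusted p = 0.00393), in a comparison where it called 6.66% of all genes, and edgeR did so without No SCI replicate 2 (0.48, adjusted p = 0.0418), in a fit that called 13.2% of all genes. For Hmox1 the difference was 0.68 (SE 0.23, unadjusted p = 0.0117, adjusted p = 0.136, edgeR), and its levels overlapped because CONT SCI + SWW replicate 3 lay within the uninjured range. In CONT SCI + SWIM the edgeR differences from No SCI were 0.31 (SE 0.15, adjusted p = 0.488) for Cat and 0.45 (SE 0.22, adjusted p = 0.497) for Hmox1. DESeq2 called 200 genes there and none of the 5. Nfe2l2, Gclc and Gclm differed from No SCI by -0.19, 0.030 and -0.13 in CONT SCI + SWW and by 0.093, 0.14 and -0.078 in CONT SCI + SWIM.

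Nfe2l2 was the 1 gene of the group that edgeR called between the sets. It was lower in the Exercise set than in the In-Cage set in both comparisons of rats with the same injury. The sets also differ in depth, and the uninjured groups in cage size, so these and anything else that separates the sets cannot be told apart. Between CONT SCI and CONT SCI + Tiny, which carry the same labels for injury, cage and time, edgeR called 5505 of 12199 genes (45.1%). Between No SCI and No SCI + Standard it called 6252 of 12174 genes (51.4%). A call of 1 gene in 5 is below these shares of all genes.

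The Nfe2l2 levels of CONT SCI (86.8 to 113 CPM) all lay below those of CONT SCI + Tiny (133 to 169 CPM), with a log2 difference of -0.63 (SE 0.11, adjusted p = 0.000484, edgeR). Those of No SCI (96.0 to 123 CPM) all lay below those of No SCI + Standard (159 to 235 CPM), with a log2 difference of -0.76 (SE 0.15, adjusted p = 0.00171, edgeR). For neither comparison was the share of all genes without overlap counted. Both Nfe2l2 differences stayed past the threshold in every alternative fit run and without each single rat, with ranges over the fits without 1 rat of -0.68 to -0.56 and -0.82 to -0.67. Gclc differed by -0.15 (SE 0.15) between the contusion groups and by -0.22 (SE 0.26) between the uninjured groups. The latter became -0.63 with an adjusted p of 0.00396 in edgeR without No SCI replicate 2, in a fit that called 54.6% of all genes. Hmox1 was 0.29 (SE 0.19, adjusted p = 0.238) and 0.26 (SE 0.19, adjusted p = 0.264) from the In-Cage groups, and Gclm -0.13 (SE 0.26) and -0.0038 (SE 0.22). For Cat the values were -0.023 (SE 0.11) between the contusion groups and -0.27 (SE 0.13, adjusted p = 0.0968) between the uninjured groups, the latter with an adjusted p of 0.0432 in DESeq2, which called 45.8% of all genes there.

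Whether the difference between contusion and no injury had another size in the Exercise set than in the In-Cage set was tested as an interaction. It compared CONT SCI less No SCI with CONT SCI + Tiny less No SCI + Standard. The uninjured rats lived in tiny cages in the first set and in standard cages in the second. Set and cage size thus cannot be told apart in this test. edgeR called 25 of 12571 genes (0.199%) and none of the 5, and none of the 5 was among the 25.2% of genes with an unadjusted p under 0.05. DESeq2 called 774 genes, none of the 5 among them. The interaction on the log2 scale was largest for Cat (0.26, SE 0.16, adjusted p = 0.297), whose mean was higher after contusion in the Exercise set and slightly lower in the In-Cage set. For the other genes it was 0.14 (Nfe2l2, SE 0.18), 0.072 (Gclc, SE 0.33), -0.12 (Gclm, SE 0.35) and 0.037 (Hmox1, SE 0.29).

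Over all 8 groups the order of mean levels differed from gene to gene. For Nfe2l2 the 3 In-Cage groups stood first, from No SCI + Standard through CONT SCI + Tiny to CONT SCI + Large, and TX SCI stood last. Its top neighbours differed by 34.97 CPM, more than the larger SD of 31.3 CPM, and no other neighbours in its order did so. For Cat the order ran from CONT SCI + SWW through CONT SCI + SWIM, No SCI + Standard, CONT SCI, CONT SCI + Tiny, CONT SCI + Large and No SCI to TX SCI. Only CONT SCI + Tiny and CONT SCI + Large, which were 219 CPM apart with a larger SD of 206 CPM, exceeded the spread among its neighbours. For Hmox1 the 5 Exercise groups stood above the 3 In-Cage groups, with CONT SCI + SWW first. The place of TX SCI rested on replicate 2, without which its mean was 35.99 CPM, below the 36.4 CPM of CONT SCI + Tiny. For Gclc and Gclm the groups of both sets were mixed, with No SCI + Standard first for Gclc, CONT SCI + Large first for Gclm and TX SCI last for both. In Gclc, Gclm and Hmox1 none of the 7 pairs of neighbours differed by more than the larger SD.

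The genes also differed in how much they varied between rats of 1 group. The SD of log2(CPM + 1) within groups was 0.45 for Hmox1, 0.43 for Gclm, 0.34 for Gclc, 0.22 for Nfe2l2 and 0.17 for Cat. Among the 9099 genes with a mean of at least 100 counts the median was 0.24, and these values stood at the 91.8, 90.2, 80.2, 43.1 and 17.9 percentile. Hmox1, Gclm and Gclc thus varied more between rats than most of these genes, and Cat less. By mean count Gclm stood at the 89.0 and Cat at the 99.7 percentile of all 24613 genes. The SD was not compared with genes of like count. The SD of Hmox1 includes TX SCI replicate 2, and those of Gclc and Gclm include No SCI replicate 2. The SE of a difference between groups reached 0.40 for Hmox1 (TX SCI against No SCI) and at most 0.19 for Cat in the same comparison.

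**Figure D3:**
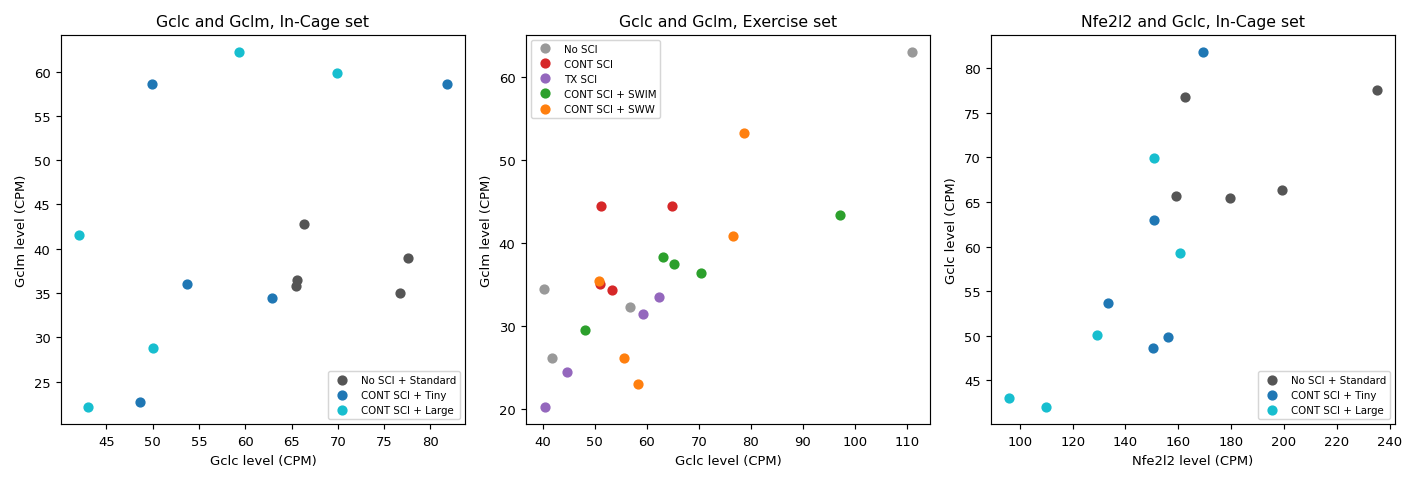
Levels in CPM of Gclc (x axis) and Gclm (y axis) in the In-Cage set (left) and the Exercise set (middle), and of Nfe2l2 (x axis) and Gclc (y axis) in the In-Cage set (right); each point is 1 rat, coloured by group. In the middle panel the points rise together (r = 0.75), with No SCI replicate 2 at the top right.

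The subunits of the ligase varied together from rat to rat in the Exercise set, and less closely in the In-Cage set. Over the 22 rats of the Exercise set the levels of Gclc and Gclm, as log2(CPM + 1), had a Pearson r of 0.75 and a Spearman rho of 0.67, and r was 0.64 without the 2 rats farthest from the Gclc median. Centred on the group means r was 0.81. Over the 15 rats of the In-Cage set r was 0.43, rho 0.35, r 0.35 without the 2 farthest rats and 0.59 after centring on the groups. Nfe2l2 and Gclc had an r of 0.79 and a rho of 0.81 in the In-Cage set, r = 0.71 without the 2 farthest rats and r = 0.64 centred on the groups. In the Exercise set the same pair had an r of 0.22 and a rho of 0.16, r = 0.35 without the 2 farthest rats and r = 0.12 centred on the groups. Nfe2l2 and Gclm had an r of 0.38 and a rho of 0.44 in the In-Cage set, r = 0.22 without the 2 farthest rats and r = 0.63 centred on the groups. In the Exercise set these values were 0.18, 0.19, 0.28 and 0.053. Hmox1 had an r between -0.32 and 0.17 with the other 4 genes over both sets, between -0.44 and 0.12 centred on the groups and between -0.59 and 0.41 without the 2 farthest rats. The lowest of these was with Gclc in the In-Cage set and the highest with Cat in the Exercise set. The 2 rats left out were always those farthest from the median of the pair's first gene, in the order Nfe2l2, Gclc, Gclm, Hmox1, Cat. They were thus chosen by the Hmox1 level only in its pair with Cat. Each point is a library, so both genes share its depth, normalization and tissue piece, and these values are descriptions without a test. The share of all pairs of genes with an r as high was not counted, so none is shown to be particular to these genes.

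Among 9094 other genes with a mean of at least 100 counts, the genes whose levels were most like each of the 5 were found by the Pearson r of log2(CPM + 1) over the 37 rats, centred on each set. For Nfe2l2 these were ENSRNOG00000019091 (r = 0.78) and ENSRNOG00000006077 (r = 0.75). For Gclc they were ENSRNOG00000017724 (r = 0.75) and ENSRNOG00000023095 (r = 0.74), and for Gclm ENSRNOG00000006410 (r = 0.72) and ENSRNOG00000018051 (r = 0.72). Hmox1 was most like ENSRNOG00000016367 (r = 0.77) and ENSRNOG00000010714 (r = 0.69). Cat was most like ENSRNOG00000057556 (r = 0.77) and ENSRNOG00000000648 (r = 0.75), whose r was 0.34 and 0.44 in the In-Cage set and 0.84 and 0.85 in the Exercise set. These libraries share depth and normalization, and the files pair none of the identifiers with a name.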

How the data were processed

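Poly(A) RNA from the livers of 37 rats went into stranded libraries. Reads were mapped by the authors with STAR to the Rn6 genome and assigned to Ensembl genes by HTSeq with the strand taken into account, without mitochondrial genes. The authors deposited these raw counts in 1 table, not normalized. Groups and replicate numbers came from the labels. The 5 genes and the lists were chosen with earlier results of these data known.

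Group differences came from robust quasi-likelihood fits in edgeR (version 4.0.16, R 4.3.3) after TMM normalization. The function filterByExpr kept genes by a smallest count of 10 and a smallest total of 15. There were 13 comparisons, each fitted on its own groups, and 1 interaction. P-values were adjusted by the Benjamini-Hochberg method over all genes tested. The SE is the size of the log2 difference divided by the root of F. Alternatives were DESeq2 1.42.0, RLE normalization, no filter, a joint fit of all groups (for comparisons across sets, all 37 libraries), a replicate block and each rat left out. Correlations used log2(CPM + 1). Among 68 pairs of libraries of 1 group the lowest reduced chi-square was 31.0, so none was taken as a copy of another. Each library counted as 1 sample, and whether cage mates were independent could not be checked. The text names the 5 genes and the 2 genes most like each. Code was tested on simulated data. The RefSeq table (47357 genes) matched 0 of the Ensembl identifiers.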

Additional observations from a re-analysis of the deposited data

Results flagged for a closer look

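Of 40 groups of 4 or 5 rats (5 genes in 8 groups), 3 held a rat whose gap to its nearest neighbour took up more of the group's range than Dixon's 95% critical value allows, and chance flags about 1 in 20 groups. For Hmox1 TX SCI replicate 2 measured 121 CPM beside 33.01 to 39.5 CPM in the other TX SCI rats, a gap of 0.927 of the range. For Cat CONT SCI replicate 1 measured 2148 CPM beside 1832 to 1867 CPM, a gap of 0.89 of the range. For Gclc CONT SCI replicate 4 measured 64.8 CPM beside 51.1 to 53.4 CPM, a gap of 0.835 of the range. Without these rats the log2 difference of Hmox1 between TX SCI and CONT SCI was -0.33 in place of 0.33, that of Cat between CONT SCI and No SCI 0.16 in place of 0.22, and that of Gclc between CONT SCI and No SCI -0.27 in place of -0.18.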

How the results depend on the processing

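The call of Nfe2l2 between the sets held in every alternative. Elsewhere the number of the 5 genes called moved from 0 to 1 with DESeq2 for CONT SCI + Large against No SCI + Standard (Nfe2l2) and for CONT SCI + SWW against No SCI (Cat), from 0 to 1 with all groups in one fit for CONT SCI + Large against No SCI + Standard (Nfe2l2), and from 1 to 2 with DESeq2 for No SCI against No SCI + Standard (Cat). Without 1 rat it lay between 0 and 1 for CONT SCI + Tiny and CONT SCI + Large against No SCI + Standard and for CONT SCI + SWW against No SCI, and between 1 and 2 for No SCI against No SCI + Standard, where Gclc was added without No SCI replicate 2. The cause of these changes was not tested. Groups of 4 or 5 rats limit what can be called.

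The replicate numbers did not pair the rats: over 48 pairs with the same number the correlation of deviations from the group means ran from -0.55 to 0.65 (median -0.014), and it exceeded 0.1 throughout in 0 of 11 comparisons. With the replicate number as a block none of the 5 genes gained or lost a call, and Nfe2l2 changed sign in CONT SCI + SWIM against No SCI (-0.024, adjusted p = 0.973). The block moved the count of genes called by edgeR from 4 to 1 (CONT SCI + Large against No SCI + Standard and TX SCI against CONT SCI), from 1 to 13 (CONT SCI against No SCI), from 8 to 4 (TX SCI against No SCI), from 1 to 7 (CONT SCI + SWIM against CONT SCI and against No SCI), from 50 to 12 (CONT SCI + SWW against No SCI) and from 25 to 12 (interaction). Gclm, near 0 between No SCI and No SCI + Standard (-0.0038), turned to 0.00089 with DESeq2 and 0.021 without a filter.

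DESeq2 called 2531 genes in place of 1479 for CONT SCI + Tiny and 1387 in place of 4 for CONT SCI + Large against No SCI + Standard, and 3 in place of 0 between these cages. It called 63 in place of 1 for CONT SCI, 291 in place of 8 for TX SCI, 200 in place of 1 for CONT SCI + SWIM and 931 in place of 50 for CONT SCI + SWW against No SCI. Against CONT SCI it called 363 in place of 4 for TX SCI, 254 in place of 1 for CONT SCI + SWIM and 910 in place of 96 for CONT SCI + SWW, and it called 14 in place of 0 between the exercised groups and 774 in place of 25 for the interaction. One fit of all groups called 899 for CONT SCI + Tiny and 935 for CONT SCI + Large against No SCI + Standard, 0 for CONT SCI, 268 for TX SCI, 49 for CONT SCI + SWIM and 272 for CONT SCI + SWW against No SCI, and 135, 10 and 20 for TX SCI, CONT SCI + SWIM and CONT SCI + SWW against CONT SCI. Without a filter the count was 116 for CONT SCI + Large against No SCI + Standard and 3 for CONT SCI against No SCI.

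Leaving out 1 rat turned the sign of 24 of 70 log2 differences, none of them called in those fits. For Gclc the ranges were -0.063 to 0.19 (CONT SCI + SWIM against CONT SCI + SWW), -0.034 to 0.58 and -0.13 to 0.46 (CONT SCI + SWIM and CONT SCI + SWW against No SCI), -0.34 to 0.26 and -0.42 to 0.17 (CONT SCI and TX SCI against No SCI), -0.18 to 0.023 (TX SCI against CONT SCI) and -0.087 to 0.51 (interaction). For Gclm they were -0.14 to 0.21, -0.016 to 0.33 and -0.022 to 0.28 within the In-Cage set (CONT SCI + Large against CONT SCI + Tiny, then both against No SCI + Standard), -0.088 to 0.22 between the exercised groups, -0.24 to 0.27, -0.32 to 0.20 and -0.14 to 0.36 for CONT SCI + SWIM, CONT SCI + SWW and CONT SCI against No SCI, -0.29 to 0.016 and -0.32 to 0.15 between the sets, and -0.28 to 0.21 (interaction). For Hmox1 they were -0.16 to 0.050 (CONT SCI + Large against No SCI + Standard), -0.33 to 0.52 and -0.16 to 0.73 (TX SCI against CONT SCI and No SCI) and -0.10 to 0.16 (interaction). For Nfe2l2 they were -0.0043 to 0.21 (CONT SCI + SWIM against No SCI) and -0.072 to 0.058 (CONT SCI + SWW against CONT SCI), and for Cat -0.068 to 0.018 (CONT SCI against CONT SCI + Tiny).

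Over the fits without 1 rat, the genes called ranged from 0 to 2020 for CONT SCI + Large and from 15 to 2998 for CONT SCI + Tiny against No SCI + Standard, from 0 to 533 for CONT SCI + SWW against CONT SCI, from 2 to 1684 for CONT SCI + SWW against No SCI, from 1 to 234 for TX SCI against CONT SCI and from 1 to 2010 for the interaction.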
